A study of Mus musculus with 6 samples.

Results

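Fragments of the lysine tRNAs with the anticodons CTT and TTT were followed in brain from young and aged C57BL/6 mice, a common inbred strain. The small RNA libraries came from brain at 3 months (3 libraries) and at 22 months (3 libraries), and no other treatment or genotype is given for either age. A member was any tRNA-derived RNA (tDR) ID whose listed parent tRNAs were all lysine tRNAs, with at least 1 mature parent. A total of 33 of the 591 IDs in the table met this rule, 23 with Lys-CTT parents only, 10 with Lys-TTT parents only and 0 with both. Tags are counted per ID, and the sequences at hand are those of the parent tRNAs and not of the fragments themselves.

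A lysine tRNA carries lysine to the ribosome. The TTT anticodon (UUU in the RNA) can read both lysine codons, and the CTT anticodon reads AAG. Cells cut tRNAs in the anticodon loop, which leaves a 5′ and a 3′ piece of the molecule, and at other places into shorter fragments. Cuts in the anticodon loop are a known act of the nuclease angiogenin under stress, and some shorter fragments are known to bind Argonaute proteins.

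The members come from few tRNA sequences. The parent groups below carry 29 of the 33 IDs. Their sequences are shown because the CTT pair differs at only 2 bases, as does the TTT pair. How IDs were assigned to parents is not given in the sources used here. Capitals mark the bases that differ within the CTT pair and within the TTT pair, positions count from 1 at the 5′ end, and the anticodon lies at positions 34 to 36.
Lys-CTT-2-1: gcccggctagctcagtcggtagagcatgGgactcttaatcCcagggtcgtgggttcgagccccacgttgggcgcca
Lys-CTT-3-1: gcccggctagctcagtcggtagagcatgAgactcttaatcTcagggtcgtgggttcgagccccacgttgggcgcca
Lys-TTT-1-1: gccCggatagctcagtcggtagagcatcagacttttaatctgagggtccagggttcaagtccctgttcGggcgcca
Lys-TTT-2-1: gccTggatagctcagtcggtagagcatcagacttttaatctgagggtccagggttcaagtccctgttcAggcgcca

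From Lys-CTT-2-1 to Lys-CTT-3-1 the differences are G29A and C41T, bases that face each other in the anticodon stem. From Lys-TTT-1-1 to Lys-TTT-2-1 they are C4T and G69A, which face each other in the acceptor stem. Lys-CTT-3-1 and Lys-TTT-1-1 differ at 12 of 76 positions. The Lys-CTT-2 sequence is shared by 2 mature names and carries 11 IDs, and that of Lys-CTT-3 by 7 mature names and carries 9 IDs, which also list 4 precursors. Lys-TTT-1 has 6 mature names of 1 sequence and carries 5 IDs, and 4 further IDs list Lys-TTT-1, Lys-TTT-2 and Lys-TTT-5 parents together. The remaining 4 IDs have other parents, namely AS-tDR-004121 (Lys-CTT-13 and Lys-CTT-18), AS-tDR-006197 (Lys-CTT-1 and Lys-CTT-14), AS-tDR-004038 (6 rarer Lys-CTT sequences) and AS-tDR-013346 (Lys-TTT-2 and Lys-TTT-5). The gene copies were not placed on the genome here, and copies with 1 sequence cannot be told apart by their tags.

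If an ID lists every parent that contains it, its parent list limits where the fragment can lie. Stretches of 15 to 50 bases were sought that occur in every listed parent of an ID and in no other parent of the table. For the Lys-CTT-2 and Lys-CTT-3 groups every such stretch covers position 29 or 41, and for Lys-CTT-3 it is at least 25 bases long. For Lys-TTT-1 every such stretch covers position 4 or 69, so it touches one arm of the acceptor stem, while for IDs of all 3 Lys-TTT parents it lies between positions 8 and 57. These are descriptions of the parent lists and not mapped ends. Over all amino acids, only 166 of 226 parent groups have at least 1 such stretch, and AS-tDR-006197, AS-tDR-004038 and AS-tDR-013346 have none. For these IDs no stretch sought meets the condition, and whether it holds for the others was not tested.

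Listed tags per library ranged from 44156 to 96130, and each library lists only values from a minimum of 8 to 17 tags upward, so a listed 0 means a level under that minimum. Replicates of 1 age differed by more than counting noise, with a chi-square per degree of freedom of 5.75 to 9.59 between libraries at 3 months. At 22 months this value was 16.5 between replicates 1 and 2, and 60.6 and 62.3 between replicate 3 and the others. The third library at 22 months thus stands apart, and many of the results are given both with and without it. Levels are relative to the listed fragments, so less of one fragment and more of another cannot be told apart, nor can fewer cells of a type and less RNA per cell.

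The part of listed tags held by lysine fragments did not differ between the ages beyond the spread of the libraries, for either anticodon. The Lys-CTT IDs held 22.5%, 27.5% and 21.2% of the tags in replicates 1, 2 and 3 at 3 months. At 22 months they held 18.6%, 24.9% and 22.6%. The ages overlap, with mean shares of 23.8% ± 3.32 and 22.0% ± 3.2 (SD, n = 3 each; exact two-sided permutation p = 0.6, where 0.1 is the smallest that 3 against 3 allows). The mean difference was -1.71 percentage points, and it turned to 0.165 without 3 month replicate 2 and to 0.0054 without 22 month replicate 1. Lys-TTT IDs held 0.481%, 0.39% and 0.537% at 3 months, and 0.517%, 0.411% and 0.686% at 22 months. Their means were 0.469% ± 0.0741 and 0.538% ± 0.139 (SD, n = 3 each; exact permutation p = 0.5). Without 22 month replicate 3 the mean difference for Lys-TTT changed from 0.0691 to -0.00495 percentage points.

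In every library Lys-CTT tags exceeded Lys-TTT tags, by 39.5-fold to 70.6-fold at 3 months and by 32.9-fold to 60.7-fold at 22 months. As a log2 ratio this was 5.67 ± 0.43 in young and 5.38 ± 0.48 in aged brain (SD, 3 libraries each; p = 0.5 by exact permutation), so the balance of the anticodons did not differ beyond its spread. Over the 4 tests of shares and ratio, lysine as a whole included, each adjusted p was 0.6 (exact permutation, Benjamini-Hochberg).

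Tags summed per anticodon were also tested among 42 anticodon sums, of which 7 (16.7%) passed. The Lys-CTT sum differed by 0.19 in log2 (SE 0.26; adjusted p = 0.565 by edgeR's quasi-likelihood test), and by -0.0916 when scaled by library size only and -0.0237 without 22 month replicate 2. The Lys-TTT sum had 0.49 (SE 0.28; edgeR, adjusted p = 0.245), or 0.17 without 22 month replicate 3. Neither passed.

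**Figure D1:**
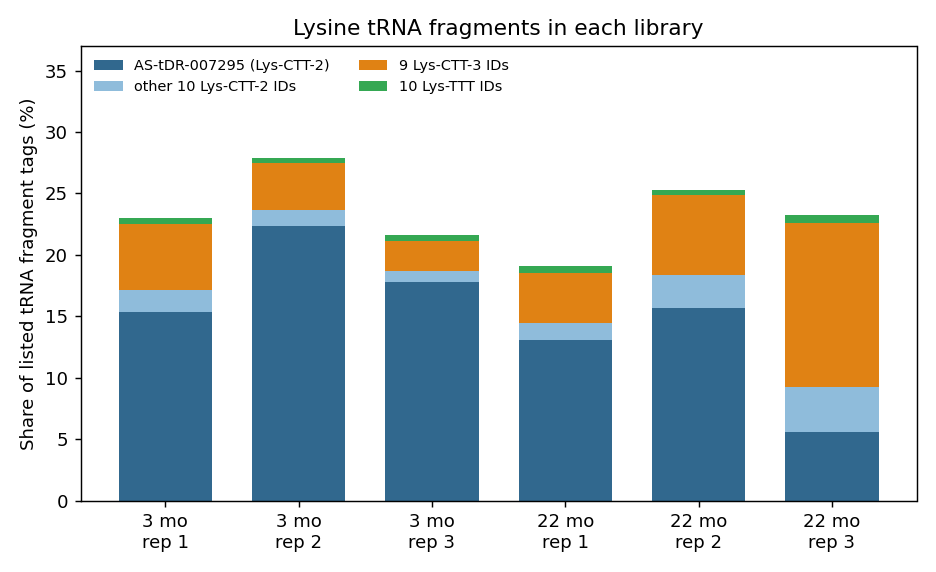
Share of listed tRNA fragment tags (%, y axis) held by lysine fragments in each library (x axis), stacked by parent. The 3 Lys-CTT IDs of rarer parents are not drawn. AS-tDR-007295 spans 13.1% to 22.3% in 5 libraries and 5.57% in 22 month replicate 3, where the 9 Lys-CTT-3 IDs reach 13.3%.

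A single Lys-CTT-2 fragment, AS-tDR-007295, held 60.0% of all lysine tags. Among the lysine tags of each library it held 66.7%, 80.0% and 81.8% at 3 months, and 68.2%, 62.0% and 23.9% at 22 months. By this share it was lowest in the third 22 month library, while 22 month replicate 2 lay just below the young range and replicate 1 inside it. As a share of listed tags, replicate 3 (5.57%) was again lowest. There replicate 1 (13.1%) lay below the young range of 15.4% to 22.3%, and replicate 2 (15.7%) inside it. The other 32 members together held 7.67%, 5.58% and 3.95% of listed tags at 3 months and 6.07%, 9.63% and 17.7% at 22 months, ranges that overlap. Their mean was 5.41 percentage points higher at 22 months, where that of all lysine fragments was 1.65 points lower (the restriction was chosen after seeing the data).

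Split by parent, the 9 Lys-CTT-3 IDs held 5.39%, 3.85% and 2.41% of listed tags at 3 months, and 4.06%, 6.51% and 13.3% at 22 months. The 11 Lys-CTT-2 IDs held 17.1%, 23.6% and 18.7%, and then 14.5%, 18.4% and 9.22%. Only in 22 month replicate 3 did Lys-CTT-3 tags outnumber Lys-CTT-2 tags, with a log2 ratio of 0.53 against -2.95 to -1.50 in the other 5 libraries. This split was also made after seeing the data, and it is given without a test.

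Over single IDs, no lysine fragment passed the test between the ages. Of the 33 members 28 could be tested, and 0 rose and 0 fell at an adjusted p under 0.05 (edgeR quasi-likelihood test over 439 IDs, Benjamini-Hochberg), against 4.78% of all tested IDs that rose and 1.82% that fell. That background lies close to the threshold, with a smallest adjusted p of 0.0489 over all IDs (edgeR). It was 0 IDs when scaled by library size only or with no filter, and 44 IDs with RLE scaling. At an unadjusted p under 0.05, 4 members were higher and 0 lower, against 15.7% and 9.79% of all IDs. Overlap of the ages was judged on levels scaled with TMM factors. In 4 members every 22 month library lay above every 3 month library, and in 0 members below, where 19.4% and 20% of all IDs did so. These shares lie near or under the background. DESeq2 called 3 members higher, AS-tDR-001363, AS-tDR-004012 and AS-tDR-000886 (adjusted p = 0.0191, 0.0459 and 0.0246), where it called 13.4% of all IDs higher, and limma-voom called 0 members, against 5.92% of all IDs higher and 4.56% lower. Among the 290 IDs above 0 in all 6 libraries edgeR called 1 member higher, AS-tDR-001363, against 13.1% of those IDs.

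Log2 differences were positive in 17 of the 28 tested members, against 42.6% of all IDs, and above 1 in 13 members, against 21.2%. The median was 0.79 over the members, 1.20 over 21 Lys-CTT IDs and -0.09 over 7 Lys-TTT IDs, beside -0.16 over all IDs. Without 22 month replicate 3 these medians were 0.33, 0.61, 0.11 and -0.01, and scaling by library size only moved the median of all IDs by -0.18 and that of Lys-TTT to -0.29. Members that share a parent come from the same tRNA sequence and may overlap, so these counts are not taken as over independent fragments.

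**Figure D2:**
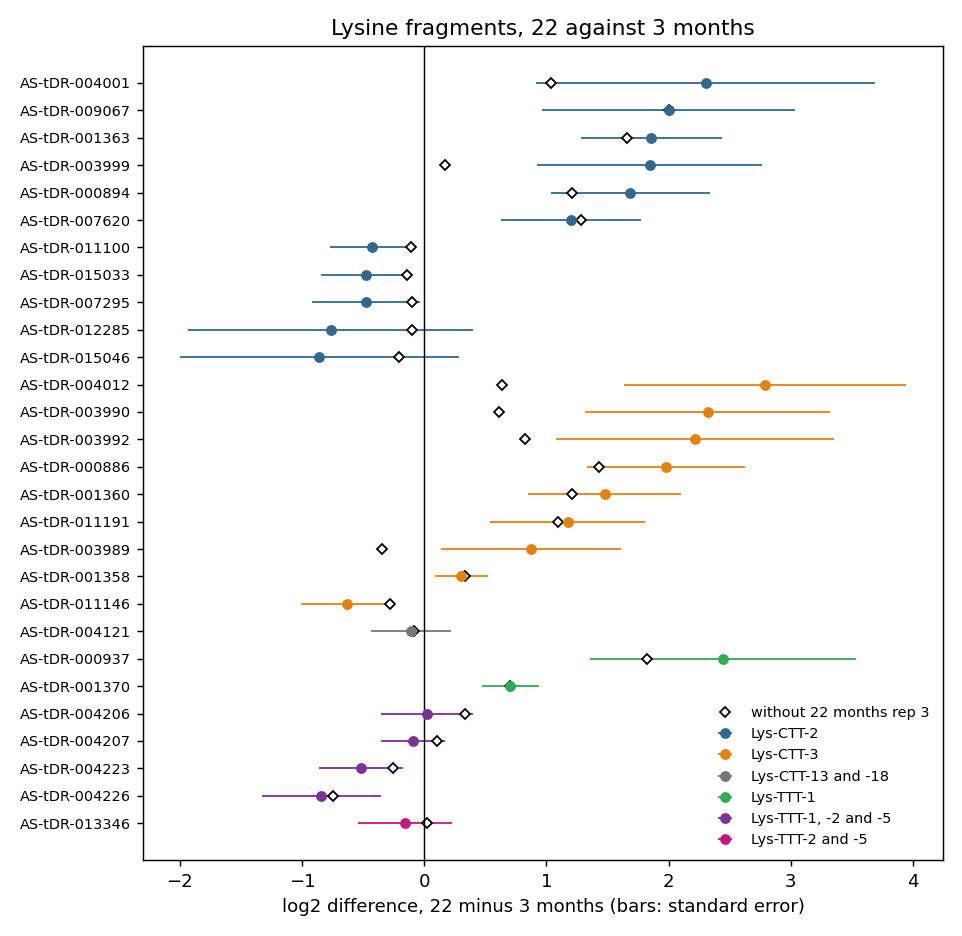
Log2 difference between 22 and 3 months (x axis; bars are standard errors of the edgeR fit) for the 28 tested members (y axis), coloured by parent group. Open diamonds show the same value without 22 month replicate 3. Within Lys-CTT-2 the values run from -0.86 to 2.30 and within Lys-CTT-3 from -0.63 to 2.79.

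Lys-CTT-2 IDs went both ways. AS-tDR-007295, the most abundant member, was at 140926, 219306 and 163649 CPM (tag counts scaled to a common total over the tested IDs with TMM factors) at 3 months and at 125156, 184815 and 65669 CPM at 22 months. The ages overlap, and the lowest value is that of 22 month replicate 3. Its log2 difference was -0.48 (SE 0.44; edgeR, adjusted p = 0.553), -0.10 without that library and -0.87 without 22 month replicate 2.

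AS-tDR-001363, from the same parent sequence, was at 5082, 2437 and 1686 CPM at 3 months and at 4989, 13575 and 14919 CPM at 22 months. Replicate 1 at 22 months lay inside the young range, and replicates 2 and 3 lay above it. The log2 difference was 1.86 (SE 0.58; edgeR, adjusted p = 0.0972), and with any 1 library left out it lay between 1.56 and 2.44. AS-tDR-009067 was at 863 and 435 CPM and a listed 0 at 3 months, and at 1187, 2265 and 1849 CPM at 22 months. All 3 aged libraries were above the young ones, at 2.00 in log2 (SE 1.04; adjusted p = 0.279 by edgeR). The value was 3.02 without 3 month replicate 1 and 1.43 without 3 month replicate 3, the library with the listed 0, and limma-voom gave 3.24. The other Lys-CTT-2 IDs with positive values were AS-tDR-004001, AS-tDR-003999, AS-tDR-000894 and AS-tDR-007620, from 1.20 to 2.30, and without 22 month replicate 3 from 0.17 to 1.28. Those with negative values were AS-tDR-011100, AS-tDR-015033, AS-tDR-012285 and AS-tDR-015046, from -0.86 to -0.42, and from -0.21 to -0.10 without that library, in which the last 2 of these were listed at 0.

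Among Lys-CTT-3 IDs 8 of 9 had a positive log2 difference. The most abundant by its mean over the 6 libraries, AS-tDR-001360, was at 18603, 10686 and 4163 CPM at 3 months and at 16181, 33198 and 43798 CPM at 22 months. Replicate 1 at 22 months was again inside the young range. The log2 difference was 1.48 (SE 0.62; edgeR, adjusted p = 0.206), or 1.21 without 22 month replicate 3. Leaving out 3 month replicate 1 gave 2.07, and leaving out 3 month replicate 3 gave 1.08. AS-tDR-000886 was at 3676, 2394 and 1145 CPM at 3 months and at 3856, 8508 and 16184 CPM at 22 months. Its ages do not overlap, by a narrow margin between the replicates numbered 1, and its log2 difference was 1.98 (SE 0.65; edgeR, adjusted p = 0.11), or 1.43 without 22 month replicate 3.

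For 2 abundant Lys-CTT-3 IDs the size of the difference came mostly from 1 library. AS-tDR-004012 was at 2461, 1415 and 1062 CPM at 3 months and at 1497, 3403 and 29421 CPM at 22 months. Its log2 difference of 2.79 (SE 1.15; edgeR, adjusted p = 0.199) became 0.64 without 22 month replicate 3. AS-tDR-003992 was at 6728, 3243 and 770 CPM and then at 2656, 9450 and 37903 CPM. Here 2.21 (SE 1.14; edgeR, adjusted p = 0.279) became 0.82. AS-tDR-003990 went from 2.32 to 0.61 in the same way, and AS-tDR-003989 from 0.88 to -0.34.

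AS-tDR-011146 was the Lys-CTT-3 ID with a negative value, at 7591, 12884 and 8909 CPM at 3 months and at 7025, 8324 and 3615 CPM at 22 months. Replicates 1 and 3 at 22 months lay below all young libraries, and the log2 difference was -0.63 (SE 0.37; edgeR, adjusted p = 0.339), or -0.28 without 22 month replicate 3 and -0.31 without 3 month replicate 2. Its lowest value is in 22 month replicate 3, as for AS-tDR-007295. In that library 218 of the 439 tested IDs (49.7%) lay below both other 22 month libraries, as did 10 of the 28 tested members. For AS-tDR-011191 and AS-tDR-001358 the values were 1.17 and 0.30 in log2 (adjusted p = 0.294 and 0.454 by edgeR).

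In the third 22 month library, lysine fragments lay far above the other aged libraries more often than far below them. In it 7 of the 28 tested members were at least 2-fold above both other 22 month libraries, against 7.29% of all tested IDs, and 2 were at least 2-fold below, against 26%. The 7 were AS-tDR-003992, AS-tDR-004012, AS-tDR-003989 and AS-tDR-003990 of Lys-CTT-3, AS-tDR-004001 and AS-tDR-003999 of Lys-CTT-2, and AS-tDR-000937 of Lys-TTT-1. The 2 were AS-tDR-012285 and AS-tDR-015046 of Lys-CTT-2, both listed at 0 in that library, which means a level under the listing minimum. Without the 2-fold cut, 11 of the 28 members were above both and 10 below, against 25.5% and 49.7% of all tested IDs. AS-tDR-007295 was below both, at 65669 CPM against 125156 and 184815 CPM, but did not reach the cut. The part of RNA quality or handling in this library was not tested.

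**Figure D3:**
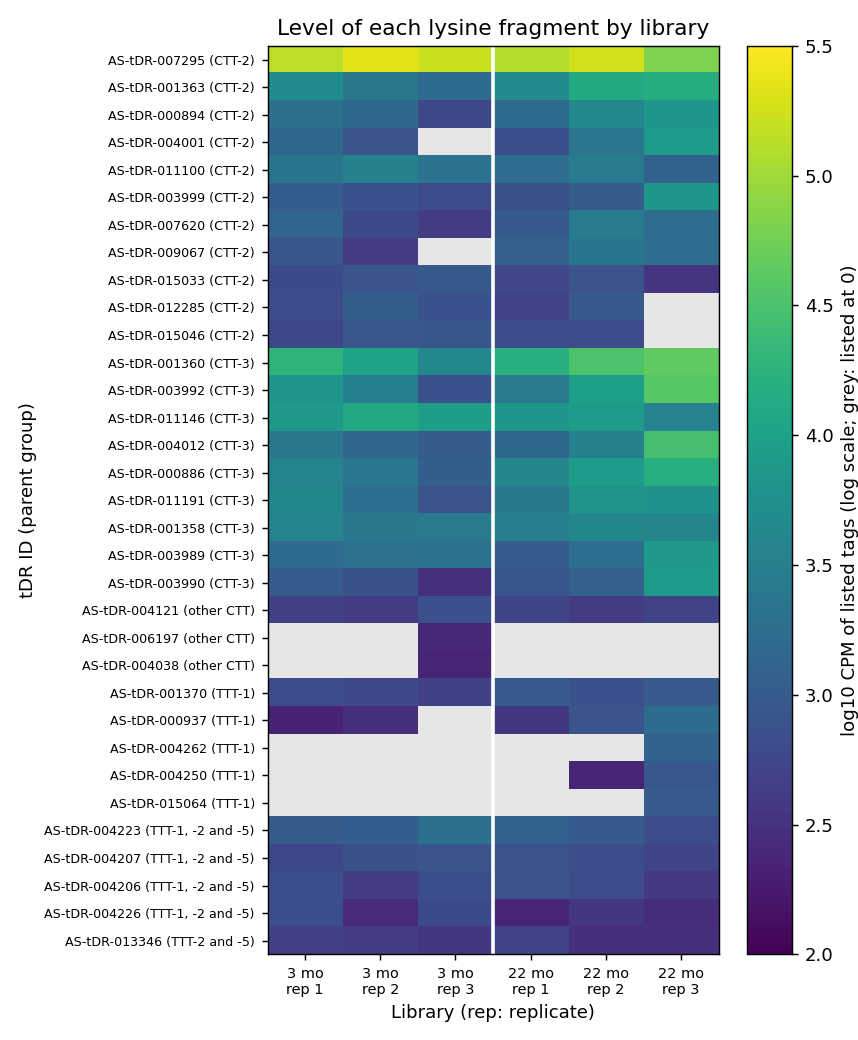
Level of each of the 33 lysine fragments (rows, by parent group) in each library (columns), as log10 CPM on the colour scale, with grey for a listed 0. AS-tDR-007295 is the brightest row in every library, and AS-tDR-004262 and AS-tDR-015064 are listed in 22 month replicate 3 only.

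All Lys-TTT fragments together held between 0.39% and 0.686% of listed tags in each library. Both tested IDs of Lys-TTT-1 alone had positive log2 differences. Of the 4 IDs shared with Lys-TTT-2 and Lys-TTT-5, AS-tDR-004223 and AS-tDR-004226 had negative ones, and the other two have no direction here. A difference between these groups was not tested. AS-tDR-001370 of Lys-TTT-1 was at 655, 566 and 479 CPM at 3 months and at 1011, 771 and 1001 CPM at 22 months. In these TMM-scaled values all aged libraries lay above all young ones. The log2 difference of 0.71 (SE 0.23, adjusted p = 0.113 by edgeR) lay between 0.60 and 0.83 with any 1 library left out. Scaled by library size only it was 0.51 (edgeR, adjusted p = 0.329). As a part of listed tags the ages overlap, since 63 of 96130 in 22 month replicate 2 is less than 41 of 57425 in 3 month replicate 1. AS-tDR-000937, of the same parents, was at 224 and 305 CPM and a listed 0 at 3 months, and at 364, 832 and 1724 CPM at 22 months. Its ages do not overlap either (log2 difference 2.45, SE 1.09; edgeR, adjusted p = 0.221), and its young values of 14, 14 and 0 tags are next to the listing minimum. The value was 1.82 without 22 month replicate 3 and 3.11 without 3 month replicate 2.

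The other 3 Lys-TTT-1 IDs were listed at 0 in every 3 month library and were not tested. AS-tDR-004250 had 0, 19 and 64 tags in replicates 1, 2 and 3 at 22 months. AS-tDR-004262 and AS-tDR-015064 had 93 and 72 tags in replicate 3 at 22 months and 0 in the other 22 month libraries. These 3 IDs therefore appear in 1 or 2 of the aged libraries, and 22 month replicate 3 is one of them each time.

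Of the 4 IDs that list all 3 of these parents, AS-tDR-004223 was the most abundant Lys-TTT fragment by its mean over the 6 libraries, although in 22 month replicate 3 its 49 tags were fewer than those of each of the 5 Lys-TTT-1 IDs, which had 64 to 124. It was at 1087, 1110 and 1957 CPM at 3 months and at 1227, 992 and 681 CPM at 22 months. The ages overlap (log2 difference -0.52, SE 0.34, adjusted p = 0.403 by edgeR). The log2 difference was -0.19 without 3 month replicate 3 and -0.25 without 22 month replicate 3. AS-tDR-004226 was at 703, 261 and 604 CPM and then at 229, 367 and 278 CPM, which also overlap (-0.84, SE 0.49; edgeR, adjusted p = 0.323).

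AS-tDR-004207 was at 575, 740 and 833 CPM at 3 months and at 796, 673 and 542 CPM at 22 months (log2 difference -0.09, SE 0.26; edgeR, adjusted p = 0.853). AS-tDR-004206 was at 703, 435 and 687 CPM and then at 823, 661 and 375 CPM (0.02, SE 0.38; edgeR, adjusted p = 0.971). The sign of both turned under several alternatives. AS-tDR-013346 of Lys-TTT-2 and Lys-TTT-5 had -0.16 (SE 0.39). Outside the main Lys-CTT groups AS-tDR-004121 had -0.11 (SE 0.32), and AS-tDR-006197 and AS-tDR-004038 were listed in 3 month replicate 3 only, with 12 and 11 tags.

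The fragments of other amino acids that followed the top lysine IDs most closely were found by the mean absolute difference of log2 CPM over the 6 libraries, each ID centred on its own mean, among 261 IDs above 0 in all of them. For AS-tDR-007295 these were AS-tDR-007308 and AS-tDR-008562 of Gly-TCC and AS-tDR-001852 of Asp-GTC, at 0.18, 0.19 and 0.19, where the median ID was at 0.50. For AS-tDR-004223 they were AS-tDR-000624 of Glu-CTC and Glu-TTC, AS-tDR-003307 of Gly-GCC and AS-tDR-000542 of Glu-CTC, at 0.10, 0.11 and 0.12, with a median of 0.40.

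Beside the members, 7 IDs list lysine parents together with those of another amino acid, and 0 list lysine precursors only. All 7 were tested, and 0 rose and 0 fell (edgeR), against 4.78% and 1.82% of all tested IDs. All 7 log2 differences were negative, against 252 of the 439 tested IDs. They ran from -1.08 to -0.01 with a median of -0.40, or -0.13 without 22 month replicate 3. Their share was 0.823% ± 0.155 in young and 0.527% ± 0.183 in aged brain (SD, 3 libraries each). The ages overlap in this share, with 0.674% in 3 month replicate 2 and 0.699% in 22 month replicate 1. With them added, lysine held 25.1% ± 3.11 in young and 23.1% ± 3.06 in aged brain (p = 0.5 by exact permutation, two-sided).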

How the data were processed

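The labels' protocols give Trizol extraction of total RNA from brain and single-read small RNA sequencing, and the submitters' processing notes name FastQC, cutadapt, Novoalign and mm10. The step that assigned tags to IDs is not given in the sources used here, nor is the listing minimum. Per the file headers, the authors deposited tag counts for each ID and library. Its title calls it normalized, but totals and smallest values differ between libraries, and the values were treated as raw counts.

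Each ID, repeated on a line per parent, was counted once. Columns named Age and WT were read as 22 and 3 months, with their numbers as replicates. Whether replicates come from separate animals is not in the labels. The p-values therefore reflect only how far these libraries vary, which may be technical.

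edgeR 4.0.16 (R 4.3.3) was run on all IDs, with filterByExpr at a minimum count of 10, TMM scaling, and the quasi-likelihood test with no replicate term; adjustment (Benjamini-Hochberg) ran over all 439 IDs tested. DESeq2 1.42.0 and limma-voom (limma 3.58.1) were alternatives. Each standard error was taken as the absolute log2 difference over the root of the F statistic.

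Members and lists were chosen with earlier results of these data known. Named IDs were the 6 most abundant of each anticodon, those past the threshold, up to 5 rises and 5 falls whose ages do not overlap, and IDs at 0 throughout one age and above 0 throughout the other; other IDs were named after their values were seen.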

Additional observations from a re-analysis of the deposited data

How the results depend on the processing

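Of 14 named and tested IDs, 12 kept their sign under every alternative that gave them a value (other scaling, filter or tool, replicate block, IDs above 0 in all 6 libraries, and 1 library left out). AS-tDR-009067 and AS-tDR-000937, with a listed 0, had no value among IDs above 0 in all 6 libraries. The exceptions were AS-tDR-004206, at -0.17 by library size only, -0.10 by limma-voom, -0.0077 with a replicate block, -0.0202 over IDs above 0 in all libraries and -0.13 to 0.34 with 1 library left out, and AS-tDR-004207, at -0.23 to 0.11 with 1 left out. Among tested members outside these 14, the sign also turned with 1 library left out for AS-tDR-003989 (-0.34 to 1.42), AS-tDR-004121 (-0.19 to 0.16) and AS-tDR-013346 (-0.34 to 0.02). The number of lysine IDs past the threshold was 0 in both directions with any 1 library left out, where 0 to 14 of all IDs passed and 0 did in 4 of the 6 cases, so that those cases could hold no lysine ID. It became 3 with DESeq2 and 1 over IDs above 0 in all libraries, all higher. The Lys-CTT sum turned to -0.0916 by library size only and ran from -0.0237 to 0.25 with 1 library left out. With 1 left out, the difference in share ran from -3.02 to 0.194 percentage points for lysine, -3.15 to 0.165 for Lys-CTT and -0.00495 to 0.133 for Lys-TTT. Over IDs above 0 in all libraries that of Lys-TTT was -0.1001 and that of the log2 ratio of Lys-CTT to Lys-TTT was 0.23; without AS-tDR-007295 that of lysine was 5.41 (chosen after seeing the data). The cause of these turns was not tested.

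Deviations of same-numbered libraries from the mean of their age correlated at -0.46, 0.04 and -0.34 over 439 IDs, and only the libraries numbered 2 correlated best with each other. Deviations from a mean of 3 libraries are not independent, so these values cannot settle whether libraries were paired by number. With a replicate block 0 lysine IDs passed, as did 0 of all 439 IDs. The exact sign-flip test of the 3 differences by number gave p = 0.5 for the lysine and Lys-CTT shares. The same exact test gave p = 0.25, the smallest it allows, for the Lys-TTT share and the log2 ratio of Lys-CTT to Lys-TTT, where all 3 differences had one sign. Several Lys-TTT counts are near the listing minimum.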
